A study of Mus musculus with 16 samples.

Results

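Surface proteins mark the steps by which a bone marrow progenitor becomes a B cell, and 9 genes for such proteins were followed through pre-B-cell receptor signalling in mouse pre-B cells. The genes were chosen by symbol: Kit, Spn, Bst1, Cd93, Cd24a, Ptprc, Il2ra, Cd2 and Ms4a1. All 9 were found among the 38918 features of the deposited count tables. Of the 9, 6 reached 1 count per 1000000 exon reads (CPM) in at least 1 library and 3 stayed under it.

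The cells were pre-B cells of Blnk-/- KO mice into which a retrovirus had brought BLNK-ERt2, a form of the adaptor protein BLNK that tamoxifen switches on. BLNK carries the signal of the pre-B-cell receptor. Cells were taken as a control, or after 0.5, 1.5 or 5 h of stimulation, which makes 4 conditions, and the series was made to find genes that respond to this receptor. All 4 carry the same deletion and the same construct. Whether the control cells received a vehicle, and whether the cells were a clone or a pool, is not stated. The 16 deposited samples are 4 sequencing lanes of each of 4 libraries, with 1 library per condition. Lanes are repeat runs of a library and not separate cultures, so there is no replicate and no test between conditions, and the intervals given here are exact 95% intervals that cover counting error only.

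In the bone marrow, the earliest B lineage cells carry the stem cell factor receptor Kit and the sialomucin CD43. After the heavy chain has been assembled and tested in the pre-B-cell receptor, the cells divide, lose Kit and CD43 and gain CD25, and CD2 and CD20 come up at later steps. CD93, CD24, BP-3 and the B220 form of CD45 mark stretches of this path, so that the set of genes expressed together places a cell along it.

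The libraries held 30746189 to 34533362 exon reads, and single lanes held 7631791 to 8709054. The label of pre-B cells was checked against 12 B lineage genes, of which 11 were analysed here and all 11 stood above 1 CPM in every library, with summed levels of 16253, 15823, 14586 and 13922 CPM in the control, 0.5 h, 1.5 h and 5 h libraries. Ebf1 was not analysed here. In this list Rag1, a recombinase gene, was called lower at 1.5 h, at 1.59 against 6.63 CPM in the control, 4.16-fold lower (3.07 to 5.74), with 7.12% of its reads unique, and 0 others were called in the 5 comparisons. Reads assigned to Blnk, the deleted gene that the construct brings back, stood at 3516, 3806, 3601 and 3533 CPM in the control, 0.5 h, 1.5 h and 5 h libraries, and counts per gene do not separate the construct from the locus. Blnk is among the 11 genes and in their sums, and reads of the construct would be counted there whatever the cell type. Of 14 T and NK cell markers, 3 reached 1 CPM in the control library: Cd28 at 19.8, Klrb1c at 16.3 and Zap70 at 5.27 CPM. The summed level of the 14 lay between 37.9 and 42.9 CPM over the 4 libraries. Trac stood at 0.029 CPM in the control and 0.94 CPM at 5 h, and Cd4, Cd7 and Ncr1 were at 0 in every library. Of 13 myeloid markers analysed, 5 reached 1 CPM, and of their summed 82.6 CPM in the control library 69.0 came from Itgam. Of 12 mast cell and erythroid markers 2 did so, Tfrc and Hbb-bt, and of 9 stromal markers 1 did, Pecam1. In bulk RNA, fewer cells of a type and less RNA per cell cannot be told apart.

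Promoters are shown for Il2ra and Spn because these are the members with a promoter entry and a level above 1 CPM whose 5 h lanes all lay above the control lanes in exon reads. A promoter entry was found for 4 of the 9 genes (Il2ra, Spn, Ptprc and Kit). Each sequence runs 5′ to 3′ on the strand of the gene, from 250 bases before to 50 bases after the RefSeq start, in GRCm38.p6, the patched form of the build mm10. Capitals mark the ETS core GGAA, read on either strand, and the kappaB motif. Il2ra lies at chr2:11642542-11642841 on the plus strand and Spn at chr7:127137774-127138073 on the minus strand.
Il2ra: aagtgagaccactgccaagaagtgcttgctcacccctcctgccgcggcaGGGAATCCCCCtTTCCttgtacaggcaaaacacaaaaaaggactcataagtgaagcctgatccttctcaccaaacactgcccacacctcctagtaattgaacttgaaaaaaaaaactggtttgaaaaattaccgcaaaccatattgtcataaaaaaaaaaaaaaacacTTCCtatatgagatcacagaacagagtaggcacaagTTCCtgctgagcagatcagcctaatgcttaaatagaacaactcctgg
Spn: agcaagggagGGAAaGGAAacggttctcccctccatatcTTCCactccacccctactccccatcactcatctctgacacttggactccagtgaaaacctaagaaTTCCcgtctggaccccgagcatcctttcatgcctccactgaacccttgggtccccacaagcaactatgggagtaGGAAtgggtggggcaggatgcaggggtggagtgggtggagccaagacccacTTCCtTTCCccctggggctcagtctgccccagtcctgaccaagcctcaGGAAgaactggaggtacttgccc
The Il2ra promoter held 4 ETS cores and the Spn promoter 8, while Ptprc had 5 and Kit 1. This motif is short, and 96.0% of 32851 mouse promoters hold it. The kappaB motif matched at 2 overlapping positions of the Il2ra promoter, in a stretch that also holds an ETS core, and at none in the other 3 promoters, with 4.51% of all promoters holding it. The STAT motif TTCNNNGAA, the FoxO motif GTAAACA and the EBF1 motif were searched on both strands and were not in these 4 windows. Of all promoters, 8.30, 3.65 and 0.904% hold the STAT, FoxO and EBF1 motifs. A match of letters is a description of the window and not a binding site.

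In the control library the genes of CD24, CD93, CD43, CD45, CD25 and BP-3 were expressed, while those of Kit and CD2 had few reads and that of CD20 had none. Levels per length, in CPM per kb of exon, were highest for Cd24a at 172 in the control library. Cd93 at 70.7 and Spn at 69.9 followed, and the lanes of these genes overlapped there. Ptprc stood at 55.4, Il2ra at 23.2 and Bst1 at 13.4 CPM per kb, and none of these lane ranges overlapped a neighbour. Cd2 at 0.27 and Kit at 0.045 CPM per kb came last, with Ms4a1 at 0. At 5 h the first places were held by Cd24a at 308 and Spn at 97.9 CPM per kb, and Spn then stood above Cd93 at 73.2 in every lane. Ptprc at 55.4, Il2ra at 28.1 and Bst1 at 6.39 CPM per kb kept their order at 5 h.

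**Figure D1:**
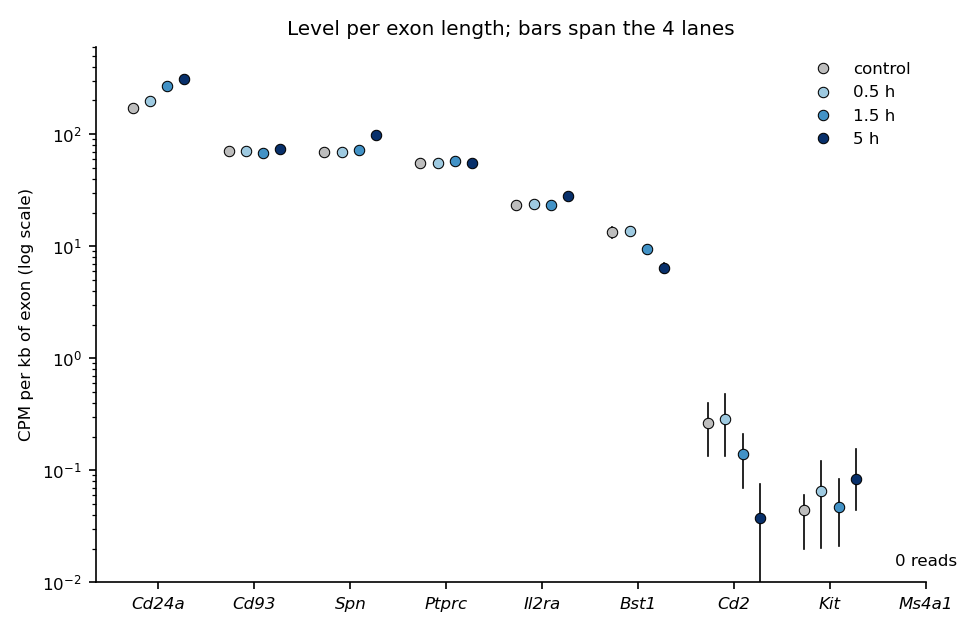
Level of each member per exon length, in CPM per kb of exon on a log axis, in the control, 0.5 h, 1.5 h and 5 h libraries. Points are libraries and bars span the 4 lanes. The 5 h bar of Cd2, which has lanes at 0, is cut at the foot of the axis. Ms4a1 had 0 exon reads, and Cd24a stood highest in all 4 libraries, at 308 CPM per kb at 5 h against 172 in the control.

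A gene was called changed where its level differed at least 2-fold after 1 CPM was added to both libraries and reached 5 CPM in the higher one, which 6 of the 9 members did. By this rule 0 members were called at 0.5 h against control, where 0.305% of 9516 genes tested were called. At 1.5 h 0 members were called as well, against 0.852% of all genes tested. At 5 h 1 member, Bst1, was called lower, against 0.735% of all genes tested in either direction and 0.399% in that direction. Between consecutive times 0 members were called, with 0.411% of genes called for 1.5 h against 0.5 h and 0.54% for 5 h against 1.5 h. At a lower fold of 1.5, Cd24a passed at 1.5 h, where 5.36% of all genes did, and Bst1 and Cd24a passed at 5 h, where 5.19% did. The median log2 ratio of the 6 members over control was 0.020 at 0.5 h, 0.036 at 1.5 h and 0.16 at 5 h, and that of all genes tested lay between -0.0050 and 0.0026.

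**Figure D2:**
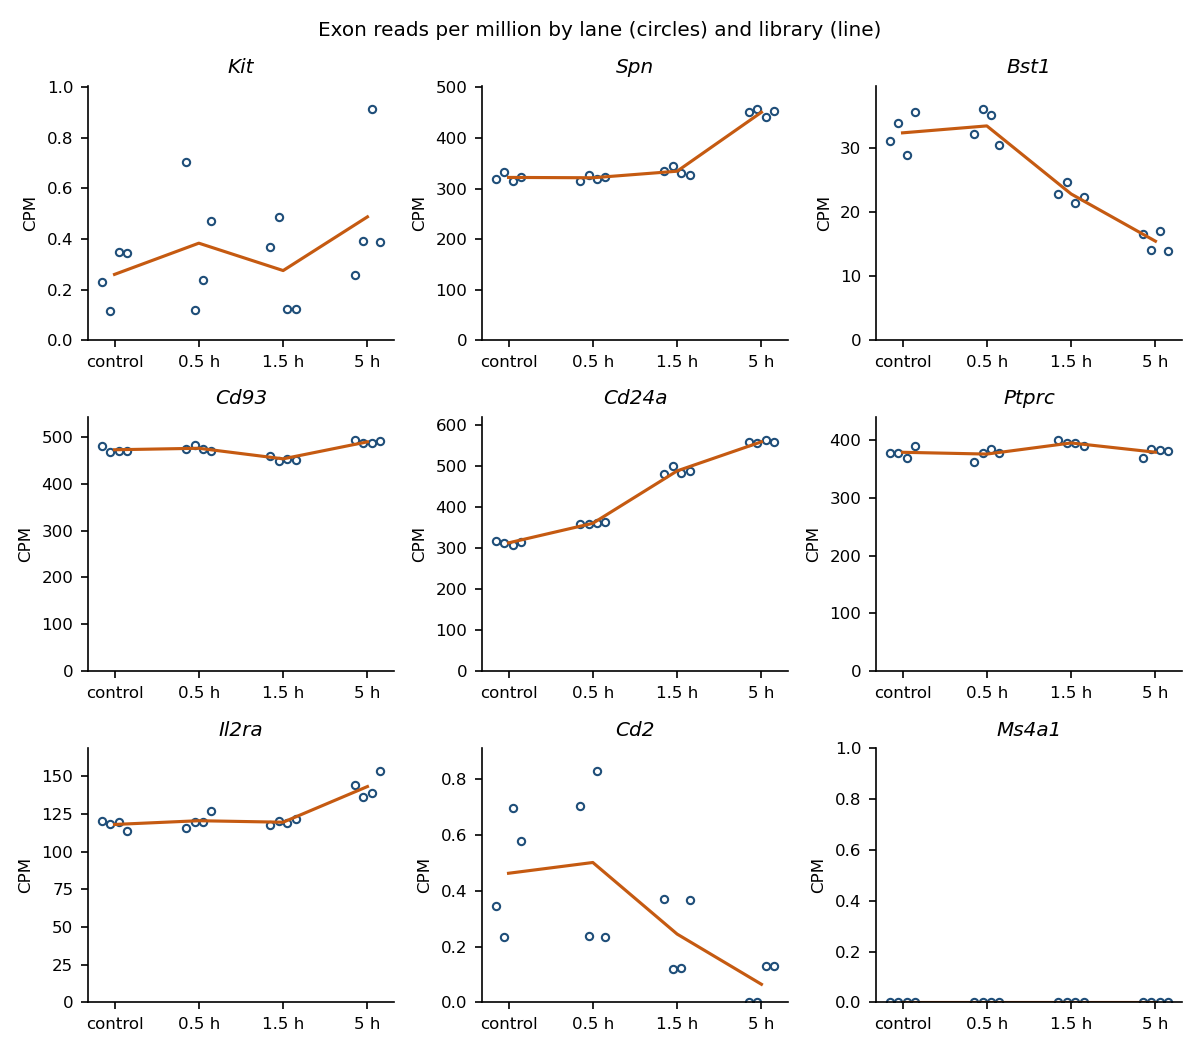
Exon level (CPM) of each member by condition, on linear axes from 0. Circles are the 4 lanes of a library, which are repeat runs, and the line joins the libraries. Bst1 lanes at 5 h lie at 13.9 to 17.1 CPM, below all control lanes, and Cd24a lanes at 554 to 562 CPM, above all control lanes.

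Kit encodes the receptor of stem cell factor and is carried by progenitors and pro-B cells. It had 9, 13, 9 and 15 exon reads in the control, 0.5 h, 1.5 h and 5 h libraries, which is 0.26, 0.38, 0.28 and 0.49 CPM. The lanes of every condition overlapped those of the others, and no difference was detectable at this depth. Its reads outside exons, 16, 21, 17 and 23 in the same order, outnumbered its exon reads in every library. The gene spans chr5:75574916-75656722 in mm10. Its ligand gene Kitl had no read in any library.

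Spn encodes CD43, a heavily sialylated mucin of the leukocyte surface that early B lineage cells carry and small pre-B cells lose. The gene lies at chr7:127132232-127137823. It stood at 322, 321, 334 and 451 CPM in the control, 0.5 h, 1.5 h and 5 h libraries. The first 3 libraries were close together and the 5 h library stood apart, with lanes at 442 to 457 CPM against 315 to 332 CPM in the control. The 5 h level was 1.40-fold that of the control (interval 1.37 to 1.44), which is under the 2-fold rule. Between 1.5 and 5 h the ratio was 1.35 (1.31 to 1.38), so the difference lay mainly between these times. All exon reads of Spn were unique in the genome. Reads that join exons gave a 5 h ratio of 1.50 (1.30 to 1.72).

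Enpep, the aminopeptidase known as BP-1 that sorts pro-B fractions together with CD43, was among the genes with the largest ratios of the progenitor and pro-B list. It stood at 513, 558, 617 and 751 CPM in the control, 0.5 h, 1.5 h and 5 h libraries. Its 5 h ratio was 1.46 (1.44 to 1.49), and unlike Spn it was already 1.20-fold (1.18 to 1.23) the control at 1.5 h. Neither gene passed the 2-fold rule.

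Bst1 encodes BP-3, also called CD157, an ectoenzyme of the cyclic ADP-ribose pathway that pre-B cells and stromal cells carry. It had 32.3, 33.4, 22.8 and 15.4 CPM in the control, 0.5 h, 1.5 h and 5 h libraries, from 1116, 1131, 744 and 475 exon reads. The 0.5 h lanes overlapped the control lanes, the 1.5 h lanes at 21.4 to 24.7 CPM lay below all control lanes at 28.8 to 35.6 CPM, and the 5 h lanes at 13.9 to 17.1 CPM lay below both. The 1.5 h level was 1.42-fold lower (1.29 to 1.56) and the 5 h level 2.09-fold lower than the control (1.88 to 2.33). The log2 ratio at 5 h was -1.02, just past the rule. Among the 6 members its exon reads also spread most between lanes of a library, where chi-square over its degrees of freedom came to 1.53 against 0.408 to 1.44 for the others. The call ended without lane 2 (-0.96), without lane 4 (-0.93), with 5 CPM added in place of 1 (-0.87) and with all reads of the gene in place of exon reads (-0.93). It stood with unique exon reads (-1.03). Reads that join exons gave a larger difference, 2.25-fold lower (1.85 to 2.74), from 147 reads at 5 h against 375 in the control.

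Bst1, at chr5:43818886-43843247, shares 2754 bases at its 5′ end with Fbxl5, a ubiquitin ligase gene on the other strand at chr5:43744615-43821638, by the GENCODE annotation. No source used here gives the strand setting of the counting, so reads of the 98 exon bases common to both genes cannot be told apart. Fbxl5 stood at 112, 111, 76.2 and 94.9 CPM in the control, 0.5 h, 1.5 h and 5 h libraries. It was lower than the control at 1.5 h and nearer to it at 5 h, where Bst1 was lower still. Its part in the Bst1 values was not tested. Between 86.0 and 90.1% of Bst1 exon reads were unique.

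Bst1 was the only member with a span of at least 1 log2 over the 4 libraries, and its pattern was set beside those of 9049 other genes. The measure was the Euclidean distance between log2 levels with 1 CPM added, each gene centred on its mean over the 4 libraries. The nearest were Itgax at a distance of 0.044, Scn11a, a sodium channel gene, at 0.080 and Plxdc1 at 0.087 log2. Itgax, an integrin chain of dendritic and other myeloid cells, stood at 5.39, 5.43, 3.65 and 2.15 CPM in the control, 0.5 h, 1.5 h and 5 h libraries. It was called lower at 5 h, 2.51-fold (1.89 to 3.38), a call that ended with unique exon reads (log2 ratio -0.97). Of its gene reads, 70.3 to 75.0% fell outside exons and at most 4 in a library joined exons. Plxdc1, a plexin domain transmembrane protein gene, stood at 57.3, 58.9, 40.7 and 25.8 CPM in the same order. The summed myeloid list stood at 82.6, 81.9, 71.5 and 46.2 CPM in the same order, and its lower sum at 5 h came mainly from Itgam, another integrin chain, at 69.0, 66.3, 58.5 and 35.9 CPM. Cd68, of the same list, was not lower, at 3.10, 5.37, 4.60 and 3.42 CPM. The part of myeloid cells in the Bst1 values was not tested. In that list Ly6g was at 0 in every library, and Lyz2 and Mpo stayed between 1.01 and 1.62 CPM.

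Cd93 encodes a C-type lectin-like receptor that the AA4.1 antibody detects on immature B lineage cells. The gene lies at chr2:148436640-148443563. It stood at 472, 475, 453 and 489 CPM in the control, 0.5 h, 1.5 h and 5 h libraries. Its 1.5 h lanes, 448 to 460 CPM, lay below and its 5 h lanes, 485 to 492 CPM, lay above the control lanes at 468 to 480 CPM. The sizes were small: the ratio to control was 0.96 (0.94 to 0.98) at 1.5 h and 1.04 (1.01 to 1.06) at 5 h. Its reads that join exons numbered 339, 369 and 347 in the control, 1.5 h and 5 h libraries. Their ratio to control was 1.16 (1.001 to 1.352) at 1.5 h and 1.16 (0.997 to 1.353) at 5 h. At 1.5 h they thus went the other way from all exon reads, and the cause was not tested.

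Cd24a encodes heat stable antigen, a small lipid-anchored sialoglycoprotein that pro-B and pre-B cells carry and mature B cells carry less of. Its level was 313, 360, 488 and 558 CPM in the control, 0.5 h, 1.5 h and 5 h libraries. The lanes of the 4 conditions did not overlap, in the order of time, with 308 to 316, 358 to 364, 480 to 499 and 554 to 562 CPM. The ratio to control was 1.15 (1.12 to 1.18) at 0.5 h, 1.56 (1.52 to 1.60) at 1.5 h and 1.79 (1.74 to 1.83) at 5 h, so its ratio was the highest of the 6 members above 1 CPM at each time and still under the 2-fold rule. Between 74.0 and 76.6% of its exon reads were unique, and the rest may be shared with copies elsewhere. Unique exon reads alone gave a 5 h ratio of 1.81 (1.76 to 1.87). Reads that join its exons numbered 476, 621, 659 and 651 in the control, 0.5 h, 1.5 h and 5 h libraries, with a ratio to control of 1.33 (1.18 to 1.50) at 0.5 h and 1.55 (1.38 to 1.75) at 5 h. The gene has 2 exons at chr10:43579169-43584262.

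Siglecg, a receptor of B cells that binds CD24, had 106.7, 95.8, 74.4 and 76.9 CPM in the control, 0.5 h, 1.5 h and 5 h libraries. It was 1.43-fold lower (1.36 to 1.51) than the control at 1.5 h and 1.39-fold lower (1.32 to 1.46) at 5 h, neither past the 2-fold rule.

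Ptprc encodes CD45, the receptor tyrosine phosphatase of all nucleated blood cells, whose longest splice form is B220 in B cells. It stood at 378, 375, 394 and 378 CPM in the control, 0.5 h, 1.5 h and 5 h libraries. The 5 h and control lanes overlapped, and the ratio was 1.0 (0.98 to 1.03). At 1.5 h it was 1.04-fold the control (1.02 to 1.07). Between 28.1 and 29.0% of its exon reads joined exons in every library. Counts per gene over chr1:138062861-138175706 do not separate the splice forms, so they say nothing of B220 itself. Ptprcap, whose protein binds CD45, lay between 353 and 379 CPM, and the splicing factor gene Hnrnpll, known to act on Ptprc in T and plasma cells, had at most 0.098 CPM.

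Il2ra encodes CD25, the alpha chain of the interleukin-2 receptor, which appears on pre-B cells after the pre-B-cell receptor. It stood at 118.0, 120, 119 and 143 CPM in the control, 0.5 h, 1.5 h and 5 h libraries. The first 3 libraries overlapped in their lanes, and the 5 h lanes at 136 to 153 CPM lay above all control lanes at 113 to 121 CPM. The 5 h ratio was 1.21 (1.16 to 1.27), under the rule, and reads that join exons gave 1.20 (1.07 to 1.36). The other chains did not form a set: Il2rg, the common gamma chain, lay between 87.6 and 101.6 CPM with only 5.09 to 5.48% of its reads unique, so its level rests on reads that also map elsewhere, while Il2rb and the ligand gene Il2 had at most 0.059 CPM. The gene lies at chr2:11642792-11693191.

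**Figure D3:**
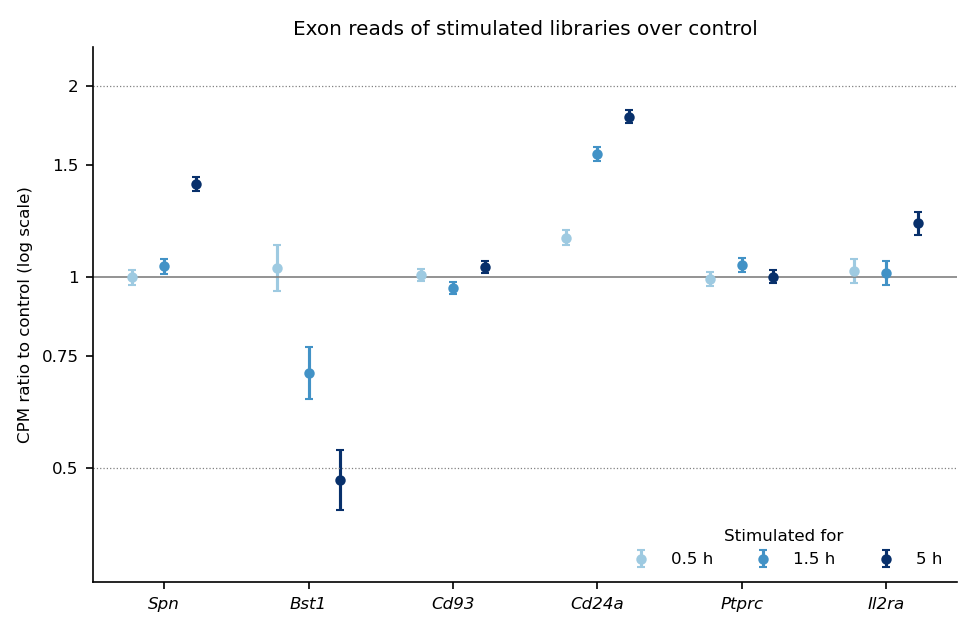
Ratio of exon CPM in the 0.5 h, 1.5 h and 5 h libraries to the control for the 6 members above 1 CPM, on a log axis, with exact 95% counting intervals. Dotted lines mark 2-fold, Bst1 lies at 0.48 and Cd24a at 1.79 at 5 h, and Ptprc stays between 0.99 and 1.04.

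Cd2 encodes an adhesion receptor that small pre-B and later B cells carry. It had 16, 17, 8 and 2 exon reads in the control, 0.5 h, 1.5 h and 5 h libraries, which is 0.46, 0.50, 0.25 and 0.065 CPM. The 5 h lanes, at most 0.13 CPM, lay below the control lanes at 0.23 to 0.70 CPM. The 5 h level was 7.12-fold lower than the control with an interval of 1.68 to 63.9, and the gene is far under the floor of 5 CPM. Its ligand gene Cd48 stood between 38.8 and 42.2 CPM. Cd2 lies at chr3:101275899-101287939.

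Ms4a1 encodes CD20, a membrane protein of later B cells, at chr19:11250603-11266151. It had 0 exon reads in every library, which allows up to 0.0869 CPM in the control and 0.0976 CPM at 5 h (3 reads). Other genes of later B cells varied in level: Cd83 and Cd86 had no read in any library and Fcer2a, Cxcr5 and H2-Aa had at most 0.195 CPM, while Tnfrsf13b, a receptor of BAFF and APRIL, stood at 115 to 147 CPM and Ccr7, a chemokine receptor, at 25.8 to 39.7 CPM.

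Reads that fall within a gene but outside its annotated exons can come from introns, and their use was chosen after the exon values were seen. They were scaled to 1000000 reads outside exons, a level called outside-exon CPM here, and each library held 6373686 to 6536286 such reads. By the same rule 1 member, Cd24a, was called higher at 0.5 h, against 1.08% of 11064 genes tested in either direction and 0.75% in that direction. At 1.5 h 1 member, Bst1, was called lower against 3.58% and 1.3%, and at 5 h 0 members were called against 1.31%.

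For Cd24a these reads numbered 103, 351, 192 and 168 in the control, 0.5 h, 1.5 h and 5 h libraries, or 15.8, 55.1, 30.0 and 26.3 outside-exon CPM. The 0.5 h lanes at 44.2 to 70.1 outside-exon CPM lay above all lanes of the other conditions, the control lanes being at 11.7 to 17.9. The 0.5 h level was 3.49-fold higher (2.80 to 4.40) than the control. The log2 ratio was 1.74, and it lay between 1.51 and 1.87 under the alternatives tried. At that time the exon level was 1.15-fold that of the control, and it was highest at 5 h, when the ratio outside exons was 1.67 (1.30 to 2.16). Between lanes of a library these counts spread more than sampling alone gives, chi-square over its degrees of freedom being 2.19, so the counting intervals are too narrow here. Nearly all of these reads were unique: 351 of 351 at 0.5 h and 167 of 168 at 5 h.

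For Bst1 the reads outside exons numbered 296, 178, 84 and 178 in the control, 0.5 h, 1.5 h and 5 h libraries, or 45.3, 27.9, 13.1 and 27.9 outside-exon CPM. They were lower than the control by 0.5 h, when the exon level was not, lowest at 1.5 h and higher again at 5 h, when the exon level was lowest. The ratio to control was 1.62-fold lower (1.34 to 1.96) at 0.5 h, 3.45-fold lower (2.70 to 4.45) at 1.5 h and 1.62-fold lower (1.34 to 1.97) at 5 h, and in all 3 comparisons the lanes lay below all control lanes. By the rule Bst1 was also called lower at 1.5 h against 0.5 h, where 2.03% of all genes were called and 0.842% lower, and higher at 5 h against 1.5 h, where 2.01% were called and 0.719% higher. The log2 ratios of these steps were -1.03 and 1.03, and both calls ended with 5 outside-exon CPM added (-0.86 and 0.86) and with scaling to exon reads (-0.81 and 0.93). The first also ended with unique reads (-0.98) and without lane 4 (-0.84), and the second without lane 2 (0.86) and without lane 3 (0.99). Of the 21785 bases of Bst1 outside its exons, 0 lie in exons of Fbxl5 in the annotation. Some lie in the stretch shared with Fbxl5, outside the exons of both genes. Reads there cannot be told apart, and the part of Fbxl5 in these Bst1 values was not tested. Reads of Fbxl5 outside its own exons numbered 1438, 1152, 1022 and 1201 in the same 4 libraries, and at 1.5 h their level was 1.38-fold lower (1.27 to 1.49) than in the control.

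None of the other members was called outside exons in these 5 comparisons. Only 5 of the 9 members reached the floor of 5 outside-exon CPM, so Kit, Cd93, Cd2 and Ms4a1 could not be called. Il2ra had 93.5, 108, 80.2 and 97.6 outside-exon CPM in the control, 0.5 h, 1.5 h and 5 h libraries, and its 5 h ratio was 1.05 (0.93 to 1.17) beside an exon ratio of 1.21. Ptprc had 168, 155, 181 and 191 outside-exon CPM, with the 5 h lanes above the control lanes and a ratio of 1.14 (1.05 to 1.23). Spn had 18.4, 18.4, 18.3 and 22.3 outside-exon CPM, with overlapping lanes. Cd93 had 12, 12, 22 and 8 such reads in the same order, with a 1.5 h ratio to control of 1.87 (0.89 to 4.15). Its lowest 1.5 h lane and its highest control lane each had 4 reads, at 2.48 and 2.47 outside-exon CPM. At 5 h Cd93 was 2.74-fold lower (1.18 to 7.12) than at 1.5 h, under the floor of 5 outside-exon CPM and with overlapping lanes. Ms4a1 had 0, 1, 5 and 0 such reads, none of them unique. By the GENCODE annotation Ms4a1 overlaps an antisense gene, 4930526L06Rik, and Ptprc and Il2ra each overlap a gene model of unsettled class on their own strand, over 5864 and 421 bases, whose reads cannot be told apart from theirs.

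**Figure D4:**
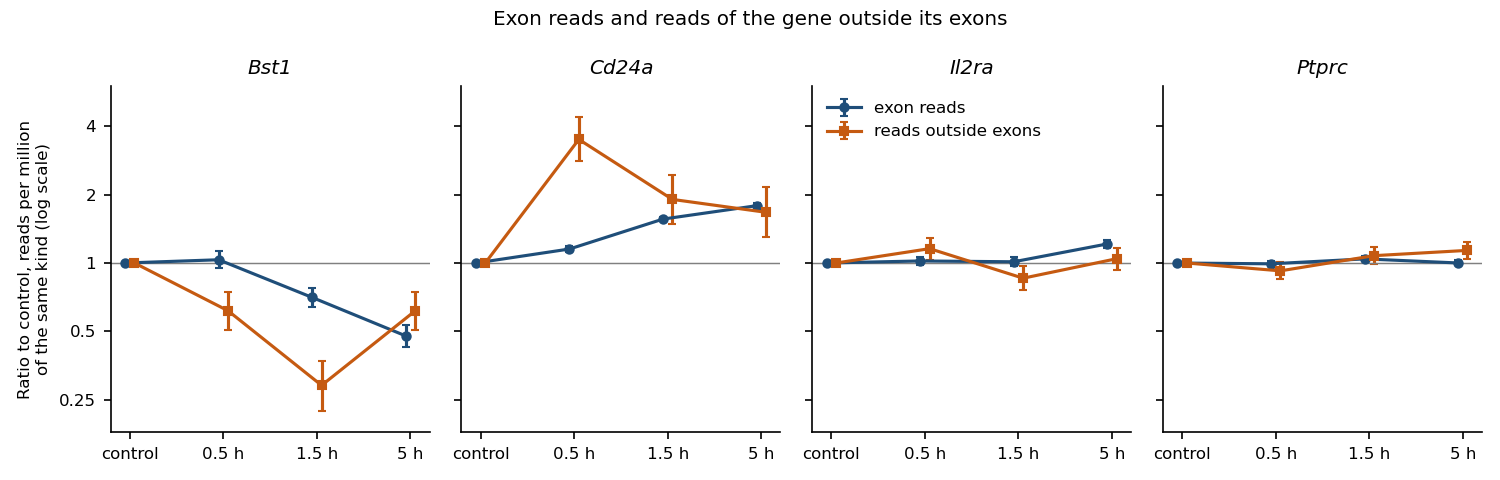
Exon reads and reads of the gene outside its exons as ratios to control, each as CPM of its kind, on a log axis with exact 95% counting intervals. Cd24a outside exons peaks at 3.49 at 0.5 h and its exon reads at 1.79 at 5 h, and Bst1 outside exons is lowest at 0.29 at 1.5 h and its exon reads at 0.48 at 5 h, while Il2ra and Ptprc stay between 0.86 and 1.21.

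The members were set in a wider group of surface markers. Of 15 other markers of progenitors and pro-B cells 8 were measured at 1 CPM or more, and 0 were called in any of the 5 comparisons. Their median log2 ratio to control was 0.17 at 0.5 h, 0.075 at 1.5 h and 0.084 at 5 h. Itga4, the alpha-4 integrin chain, was 1.44-fold (1.39 to 1.49) the control at 5 h, with 69.7% of its reads unique, and Cd44, the hyaluronan receptor, 1.26-fold (1.17 to 1.35). Notch1 was 1.24-fold (1.18 to 1.30) the control at 0.5 h and 1.39-fold lower (1.31 to 1.48) than the control at 5 h. Cxcr4, the chemokine receptor that holds precursors in the marrow, stood at 259, 323, 325 and 312 CPM in the control, 0.5 h, 1.5 h and 5 h libraries. Il7r, the interleukin-7 receptor alpha chain, was lower than the control at 1.5 h, 79.4 against 104.8 CPM, and stood at 97.4 CPM at 5 h. Cd34, Ly6a, Cd9 and Cd27 had at most 0.087 CPM.

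Of 31 markers of pre-B to mature B cells analysed 22 were measured, and 0 were called in any comparison. Their median log2 ratio to control was -0.049 at 0.5 h, -0.14 at 1.5 h and -0.075 at 5 h, and 15 of the 22 were below 0 at 5 h. At 5 h 4 of the 8 measured progenitor and pro-B markers and 9 of the 11 B lineage genes were below 0 as well. The median of all genes tested was 0.0026 at 5 h. Cd69, an early activation antigen, stood at 28.1, 54.3, 52.6 and 27.0 CPM in the control, 0.5 h, 1.5 h and 5 h libraries, which was 1.93-fold (1.79 to 2.09) the control at 0.5 h. Fcgr2b, the inhibitory IgG receptor, was 1.70-fold (1.63 to 1.77) the control at 5 h. Fcrla, an Fc receptor-like protein gene, stood at 6.08 CPM at 5 h against 3.53 CPM in the control. Cd22, an inhibitory sialic acid receptor, was 1.72-fold lower (1.52 to 1.94) than the control at 5 h. S1pr1, the sphingosine phosphate receptor of egress, was 2.07-fold lower (1.65 to 2.62), at 3.55 against 7.36 CPM, and missed the rule only through the added 1 CPM. Cd79b, a chain of the receptor itself, was 1.34-fold lower (1.30 to 1.37) than the control at 1.5 h and 1.36-fold lower (1.32 to 1.40) at 5 h.

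**Figure D5:**
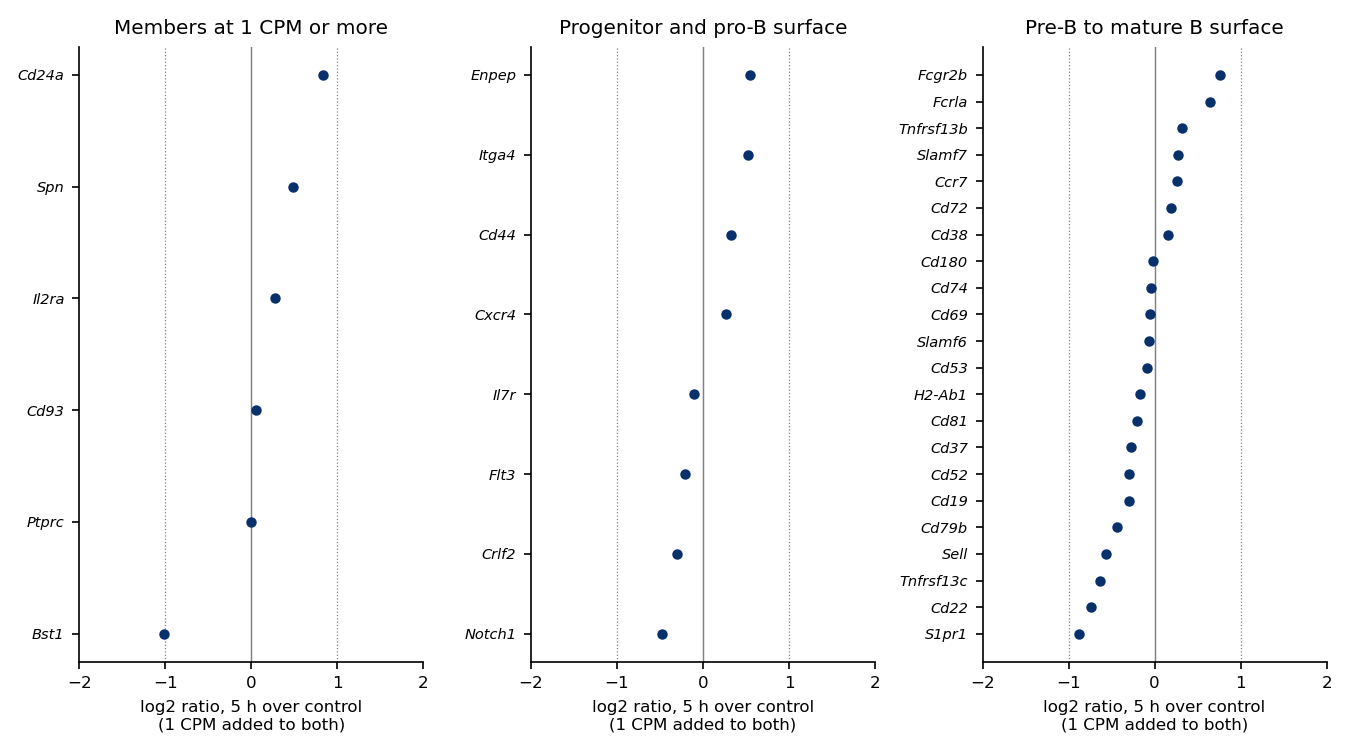
The log2 ratio of exon CPM at 5 h over control, after adding 1 CPM to both, for the 6 members above 1 CPM and for measured markers of 2 lists. Each point is a gene, dotted lines mark 2-fold, Bst1 at -1.02 is the only point past them, and S1pr1 at -0.88 and Cd24a at 0.83 come nearest.

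Of 21 ligands, chains and partners of the members analysed, 17 were measured and 0 were called. Their median log2 ratios to control were -0.0084 at 0.5 h, 0.013 at 1.5 h and 0.020 at 5 h. Ptpn6, the phosphatase SHP-1 that binds inhibitory receptors and Kit, stood at 224, 242, 407 and 386 CPM in the control, 0.5 h, 1.5 h and 5 h libraries. It was 1.82-fold (1.77 to 1.87) the control at 1.5 h. Sh2b3, the adaptor LNK that restrains Kit signalling, stood at 107 CPM at 1.5 h and 55.3 CPM at 5 h, against 77.6 CPM in the control. Cd38, the relative of Bst1 with the same enzyme activity, lay between 1.0 and 1.30 CPM.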

How the data were processed

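Poly(A) RNA was turned into libraries by a TruSeq or NEBNext kit, not said which for each library, and run on a HiSeq instrument, per the labels' protocols. CASAVA 1.8.2 and mm10 are named in the submitters' processing notes, while aligner, counter and strand setting were not given in the sources used here. Per the file headers, the deposited values used are counts of reads per gene and lane (total and unique exon, total and unique gene, and exon-exon reads) and annotation columns, and 0 read columns were left unmatched. RPKM and fold columns were not used.

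Lanes of a library were summed and scaled to CPM. Calls needed a level of 5 CPM in either library and a 2-fold difference after 1 CPM was added. The folds in the text had no CPM added, and their intervals are exact Clopper-Pearson ones at 95%. Reads outside exons are gene minus exon reads. With 1 library per condition no test was run. Named genes were the 9 members in every library, up to 4 measured genes of each list with the largest ratios, and the 3 patterns nearest to a member spanning at least 1 log2. Genes named beyond that rule were chosen after their values were seen. The members and all 8 lists (122 of 126 genes analysed) were chosen with earlier results of these data known. Overlaps came from GENCODE, promoters from RefSeq. Alternatives were TMM factors (edgeR 4.0.16), DESeq2 1.42.0 size factors, other pseudocounts, floors and folds, unique or gene reads, leaving out each lane, and lane numbers as a block. Python 3.11.15, pandas 2.3.3, SciPy 1.17.1 and R 4.3.3 were used, and the calling was tested on simulated data.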

Additional observations from a re-analysis of the deposited data

Results flagged for a closer look

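Spn reads outside exons at 5 h stood at 25.3 outside-exon CPM in lane 2, apart from the other 3 lanes at 21.2 to 21.3 outside-exon CPM. It was 1 of 44 groups of 4 lanes looked at, and chance flags about 1 in 20 such groups. Cd93 exon reads had a mean log2 ratio to control over lanes of 0.051 at 5 h and -0.060 at 1.5 h. All lanes lay above the control at 5 h and all below it at 1.5 h. This difference was not tested, since lanes are repeat runs of 1 library. Cd93 reads that join exons were not lower than the control at 1.5 h, with a ratio of 1.16 (1.001 to 1.352).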

How the results depend on the processing

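Each condition has 1 library, so culture, library kit and condition cannot be told apart, and depth limits Kit, Cd2 and Ms4a1, which stayed under 1 CPM. Scaling by TMM or DESeq2 factors, other floors and unique exon reads changed no call of a member in exon reads. Adding 5 CPM in place of 1 lowered the genes called to 19, 38 and 36 at 0.5, 1.5 and 5 h against control, against 29, 81 and 70, to 20 against 39 for 1.5 h over 0.5 h, and to 32 against 51 for 5 h over 1.5 h. A 1.5-fold rule raised them to 78, 510, 494, 342 and 323 in the same order. Members called in exon reads were 1 at 1.5 h and 2 at 5 h by the 1.5-fold rule, and at 5 h 0 with 5 CPM added, 0 with total gene reads and 0 to 1 when leaving out each lane in turn, the call ending without lane 2 and without lane 4. Outside exons, leaving out each lane gave 1 to 2 members at 1.5 h against control (Cd24a was added without lane 4), 0 to 2 for 1.5 h over 0.5 h and 0 to 1 for 5 h over 1.5 h. The call for 1.5 h over 0.5 h went to 0 with unique reads, with scaling to exon reads and with 5 outside-exon CPM added, and that for 5 h over 1.5 h went to 0 with scaling to exon reads and with 5 outside-exon CPM added. The cause of these changes was not tested. With the replicate block, which here holds lane numbers and not separate samples, 29, 82, 73, 41 and 54 genes were called in the same order, and 1 member, Bst1, was called at 5 h. Of 735 values of single members under alternatives, 730 moved by less than the spread between lanes, 0 that were called changed sign, and 28 others near 0 did. Leaving out 1 of 4 summed lanes can move a value only little by construction, so this count does not measure how firm the calls are. The alternatives for reads outside exons were chosen after seeing the data.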
